A study of Caenorhabditis elegans with 4 samples.

Results

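The MRG-1 peaks on the X chromosome of adult *Caenorhabditis elegans* are described here by position, spacing, width and score. They were taken as every line on X in 3 deposited peak lists: 498 of the 12447 peaks of the list for the whole series, 190 of the 3283 peaks of ChIP replicate 1 and 27 of the 3184 peaks of ChIP replicate 2. Membership rests on position alone, so neither width nor score chose a peak beyond what the peak caller had kept. The lists come from chromatin immunoprecipitation followed by sequencing (ChIP-seq), in which a polyclonal antibody raised in rabbit and affinity-purified was used to pull down MRG-1. The worms of all samples carried the same allele, *fem-2(b245)*, on chromosome III, and were labelled as hermaphrodite young adults that contain a germ line. The series design gives 20 °C as their temperature. There were 2 ChIP samples and 2 input samples of that one genotype and stage, with no wild type and no other condition. Chromatin came from extracts of whole worms, so germ line and body cannot be told apart. The input libraries were not analysed here.

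MRG-1 is a chromodomain protein of the MRG15 family, whose members bind chromatin that carries methylation of lysine 36 on histone H3, a mark of transcribed genes. In the worm germ line the X chromosome is kept largely silent, and genes active there lie mostly on autosomes. MRG-1 is known as a protein found mainly on autosomes in germ cells, and loss of it raises X-linked transcripts there. The enzyme MES-4, which puts methylation on histone H3 lysine 36 in the germ line, is likewise found on little of X other than its left end. Sites on X were the minority of MRG-1 peaks in each list used here, and the lists allow them to be looked at one by one. Why they were few was not tested.

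The replicate lists stood apart on X. They held 3093 and 3157 autosomal peaks, but 190 and 27 peaks on X. X held 4.0% of the nuclear series peaks (95% Wilson interval 3.67 to 4.36%), 5.79% of the replicate 1 peaks (5.04 to 6.64%) and 0.848% of the replicate 2 peaks (0.583 to 1.23%). Results that need both replicates are thus limited by replicate 2, and are given with and without it. Wilson intervals treat peaks as independent and cover counting error only. Read depth is unknown, since the lists hold no counts, and a stretch without a peak shows only that none was called there. The labels do not say that the replicates came from separate cultures. With 2 ChIP samples and 1 condition no test over samples can be made, and all comparisons below are descriptions.

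X peaks were narrow. The median width of the series peaks on X was 364 bases, with 50% of them between 219 and 677.8 bases, against a median of 456 bases on the autosomes. The narrowest was 146 bases, which was also the narrowest on each autosome. Peaks under 300 bases made up 39.8% of the X peaks and 32.9% of the autosomal ones. At the other end, 8 of the 498 X peaks, or 1.61%, were over 2000 bases wide, where 15.5% of the autosomal peaks were. None of the X series peaks was over 5000 bases.

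The replicate lists were called with broader peaks, and X was again on the narrow side of both. The median X peak was 1981 bases wide in replicate 1, 0.600 times the autosomal median, and 1109 bases in replicate 2, 0.507 times the autosomal median. In the series list this ratio was 0.798. Only 7 of the 190 X peaks of replicate 1 were over 5000 bases, against 35.1% of its autosomal peaks. The widest X peak of replicate 1 had 6544 bases and that of replicate 2 had 4929 bases, both in the first 200 kb from the left end.

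Scores are the peak caller's own deposited values, and they are used here only to rank a peak within its list. The lowest score was 50.02 in the replicate 1 list and 50.01 in that of replicate 2, whose lowest X peak had 51.3. The percentile of a peak is the share of all peaks of its list with a score at or below its own. The median X peak stood at percentile 39.4 of the series list, 30.8 of replicate 1 and 21.4 of replicate 2. Below their list's median were 304 of the 498 series peaks on X (61.04%), 169 of 190 in replicate 1 and 22 of 27 in replicate 2. Only 3 series peaks on X stood above percentile 90 of their list, and 64 were above percentile 75. The highest X peak was number 562 in the series list, number 39 in replicate 1 (tied, at the score 3100) and number 870 in replicate 2. Strong sites on X were thus few in every list, and all 3 of these best peaks lay in the left 200 kb.

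**Figure D1:**
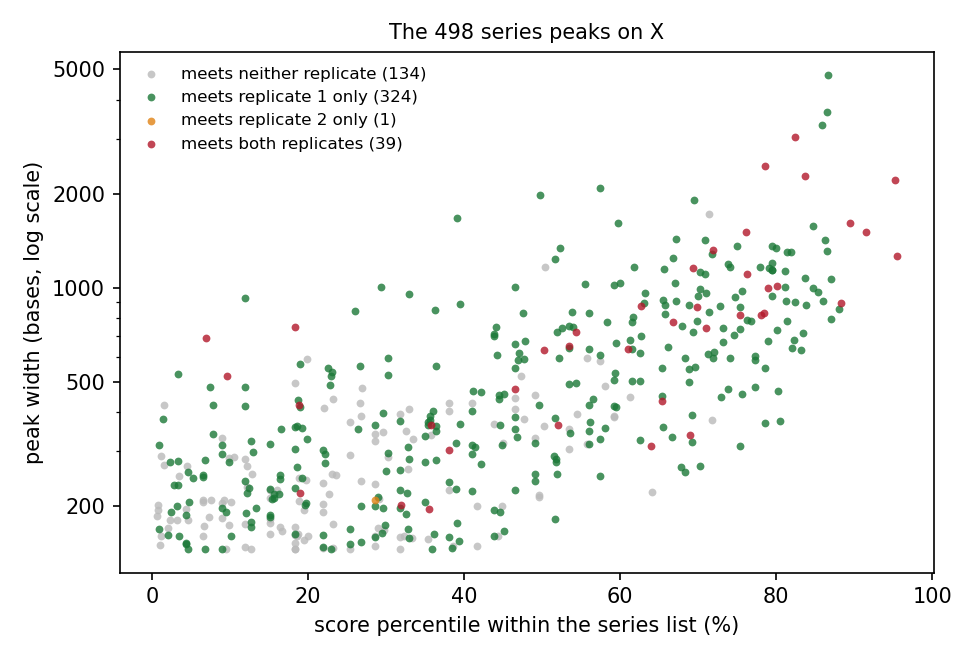
Width in bases (log scale) against the score percentile within the series list for the 498 series peaks on X, 1 point a peak, coloured by the replicate lists whose peaks it meets. Peaks that meet neither replicate (134) gather at low scores and widths, with a median width of 223.5 bases, and those that meet both (39) lie mostly to the right, with a median percentile of 68.9.

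Each series peak on X was then placed by whether it met, by at least 1 base, a peak of replicate 1 and of replicate 2. Of the 498 peaks, 39 met both replicates, 324 met replicate 1 only, 1 met replicate 2 only and 134 met neither. The share over both was 7.83% (5.78 to 10.5%), where 31.5% of all nuclear series peaks met both. The share over replicate 1 was 72.9% (68.8 to 76.6%), close to the 74.4% of all nuclear series peaks. The share over replicate 2 was 8.03% (5.95 to 10.7%), where 34.7% of all nuclear series peaks met it. Replicate 2 had 27 X peaks, which covered 0.242% of X, while its autosomal peaks covered 11.5% of the autosomes. Every X share that needs replicate 2, here and below, is bounded by these few calls. Each autosome had between 34.7% (chromosome I) and 37.1% (chromosome II) of its peaks over replicate 2, so X lay outside the autosomal range there and inside it for replicate 1, where the autosomes ran from 71.7 to 78.4%. The share over neither was 26.9% (23.2 to 30.97%), against 22.4% of all nuclear series peaks. No source used here says how the series list was called from the samples, so meeting a replicate list is no independent repeat.

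The classes differed in width and score on X. For the 39 peaks over both, the median width was 779 bases and the median percentile 68.9. The 324 over replicate 1 only had 422.5 bases and percentile 46.4, and held 71.6% of all X bases in the series list. The 134 over neither had 223.5 bases and percentile 23.1. On the autosomes the peaks over both held most of the bases, 67.1%, with a median width of 1551 bases, whereas on X they held 13.9%.

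Since X peaks scored lower, X and autosomal series peaks were set side by side within 4 score groups of equal size, cut over all nuclear series peaks. The groups held 161, 143, 130 and 64 X peaks from the lowest to the highest. For replicate 1 the shares on X and on the autosomes were close in the lower 3 groups, and X had the higher share in the highest. From the lowest group up, 54.04%, 67.8%, 88.5% and 100% of the X peaks met a replicate 1 peak, against 52.8%, 67.03%, 84.8% and 92.6% on the autosomes. For replicate 2 the X share was the lower one in each group, with 3.11%, 4.20%, 10.8% and 23.4% on X against 11.7%, 15.4%, 30.7% and 84.1% on the autosomes. The difference between X and the autosomes was largest at the top. All 64 X peaks of the highest group met replicate 1 and 15 of them met replicate 2.

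For peaks over both replicates the difference, X minus autosomes, was -5.98 percentage points in the lowest score group (95% Newcombe interval -8.06 to -1.90), then -9.49 (-11.8 to -4.91), -17.1 (-21.6 to -10.4) and -55.4 (-64.2 to -43.6) in the highest. X peaks in the highest group were narrower than their autosomal neighbours in score, with a median of 973.5 against 2286 bases. Among series peaks of 500 to 2000 bases in that group, 11 of 51 on X (21.6%) and 69.0% on the autosomes met both. In the lowest group this width range left 10 X peaks, of which 3 met both (30.0%) against 17.4% on the autosomes, so the direction turned there. In the ninth of 10 score groups, where the median widths were 997 and 1993 bases, 5 of 33 X peaks (15.2%) met both, against 78.05%. When 50% of both peaks had to overlap, the differences were 0, -0.273, 0.466 and -22.7 from the lowest group up. The autosomal shares were then 0%, 0.273%, 1.84% and 29.0%. X could thus lie little below the autosomes in the lower 3 groups, and this rule can show a deficit only in the highest.

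**Figure D2:**
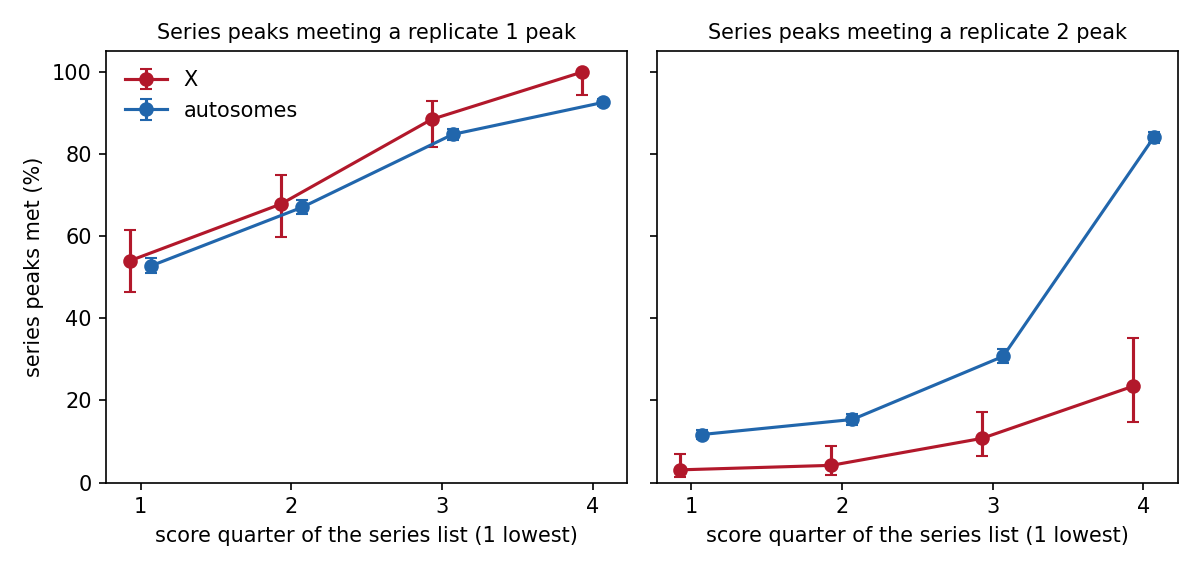
Share of series peaks that meet a peak of replicate 1 (left) or replicate 2 (right), in percent, for 4 score groups of the series list; red is X, blue the autosomes, and bars are 95% Wilson intervals. X and the autosomes run close together for replicate 1, while for replicate 2 the highest group has 23.4% on X and 84.1% on the autosomes.

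The replicate 1 list was then set beside replicate 2. This is no separate observation, as the same 27 X peaks of replicate 2 bound the counts. Replicate 2 touched 21 of the 190 X peaks of replicate 1, or 11.1% (7.34 to 16.3%). Of all replicate 1 peaks 59.7% were touched. In the 4 score groups of replicate 1 the X share was 5 of 69 peaks (7.25%), 8 of 100 and 7 of 20 (35.0%). The single X peak of the highest group was met. On the autosomes the shares were 13.4%, 41.3%, 90.5% and 99.3%. In the second group the median widths were alike, 2141 bases on X and 2332 on the autosomes. Turned the other way, replicate 1 met 24 of the 27 replicate 2 peaks on X, or 88.9% (71.9 to 96.2%), near the 90% of all replicate 2 peaks. The few X calls of replicate 2 thus fell on replicate 1 calls about as often as all its calls did.

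Peaks of the 3 lists that touched one another were joined into loci. X had 326 loci, of which 21 held a peak of all 3 lists, 166 a series and a replicate 1 peak, 134 a series peak alone, 2 a replicate 1 peak alone and 3 a replicate 2 peak alone. Without replicate 2, 187 loci had a peak in both remaining lists, and without replicate 1, 24. Of the 21 loci in all lists, 4 lay in the left 200 kb, where they took up 17 of the 39 series peaks over both replicates, and 17 lay along the rest of X. Without the left 200 kb, 22 of 458 series peaks (4.80%, 3.19 to 7.17%) met both replicates.

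The 17 loci are given from left to right, with WS220 positions. They are numbered in that order in the map of the loci. The first lay at 766908 to 769755, with its best peak at percentile 69.8 of the series list, 39.9 of replicate 1 and 13.8 of replicate 2. The second, at 2685856 to 2687436, had percentiles of 78.1, 34.9 and 3.67 in the same order. It was number 2732 of 12447 in the series list and number 3068 of 3184 in replicate 2. The lists differ in length, so percentiles of different lists are not on one scale. The next pair stood 5.87 kb apart. The third (3103417 to 3106065) had percentiles of 62.6, 30.5 and 11.5. The fourth (3111936 to 3114859) had 66.7, 41.2 and 61.4, and was the only one of the 17 above the median of replicate 2.

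Locus 5 lay at 4190733 to 4193148, with percentiles of 71.9, 29.1 and 27.8. Locus 6, at 4469223 to 4471397, had the highest series percentile of the 17, 89.4, and stood at 57.3 in replicate 1 and 29.4 in replicate 2. Its single series peak of 1611 bases was the highest-scoring X series peak outside the left 200 kb. Locus 7, at 6088909 to 6092030, had 76.1, 46.9 and 38.0. Locus 8, at 6839456 to 6842394, had 88.3, 52.1 and 19.7. It lay just to the right of the longest stretch of X that no list marked.

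Loci 9 and 10 were narrow, with 1302 and 1441 bases, and stood on either side of the longest stretch of X that replicate 2 left without a call, 2146 kb. Locus 9 (7768773 to 7770074) had percentiles of 75.3, 24.4 and 35.9. Locus 10 (9916153 to 9917593) had 69.8, 23.7 and 3.96. Locus 11 (11603567 to 11605462) had 18.98, 8.71 and 18.3 and was the only one below the series median. All lists can therefore share a site that none of them ranks high. Locus 12 (12017933 to 12020847) had 80.1, 52.03 and 17.0.

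Locus 13 (14101999 to 14107150) was the widest, with 5152 bases, and had percentiles of 82.4, 62.4 and 28.9. Its replicate 2 peak began left of the replicate 1 peak, and 89.4% of it lay inside. Locus 14 (14816509 to 14818760) had 69.4, 31.6 and 20.9. Locus 15 (14852420 to 14855933), 33.7 kb further on, had 84.7, 55.6 and 30.3. These last ones form the other close pair. Locus 16 (15849171 to 15851987) had 83.7, 62.1 and 21.4. Locus 17 (17710365 to 17712518) was the last called site of X in every list, and had 71.0, 17.3 and 36.4. There replicate 2 was the wider peak, with 2034 bases against 1297, and the only series peak over replicate 2 alone lay in its right part (17711949 to 17712158).

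Most of these 17 loci shared a layout. The replicate 2 peak lay wholly inside the replicate 1 peak at 15 of them and was the narrower one at 16. Replicate 1 peaks were also the wider ones on the autosomes, with medians of 3302 bases against 2187 in replicate 2. Autosomal loci were not counted in this way, so the layout is not shown to be particular to X. The median replicate 2 length was 1146 bases, that of replicate 1 was 2649 bases and that of the series peaks together 1526 bases. A single series peak was found at 7 loci, 2 at another 7 and 3 at the remaining 3. Their ranks were modest in the replicate lists. The replicate 1 percentiles had a median of 39.9 (8.71 to 62.4), and the replicate 2 percentiles a median of 21.4 (3.67 to 61.4), with 16 of 17 at or below the list's median. The series percentiles had a median of 75.3 (18.98 to 89.4), and 16 of 17 were above 50. They belong to the best series peak of each locus, in a longer list, and are not on the scale of the replicate percentiles.

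**Figure D3:**
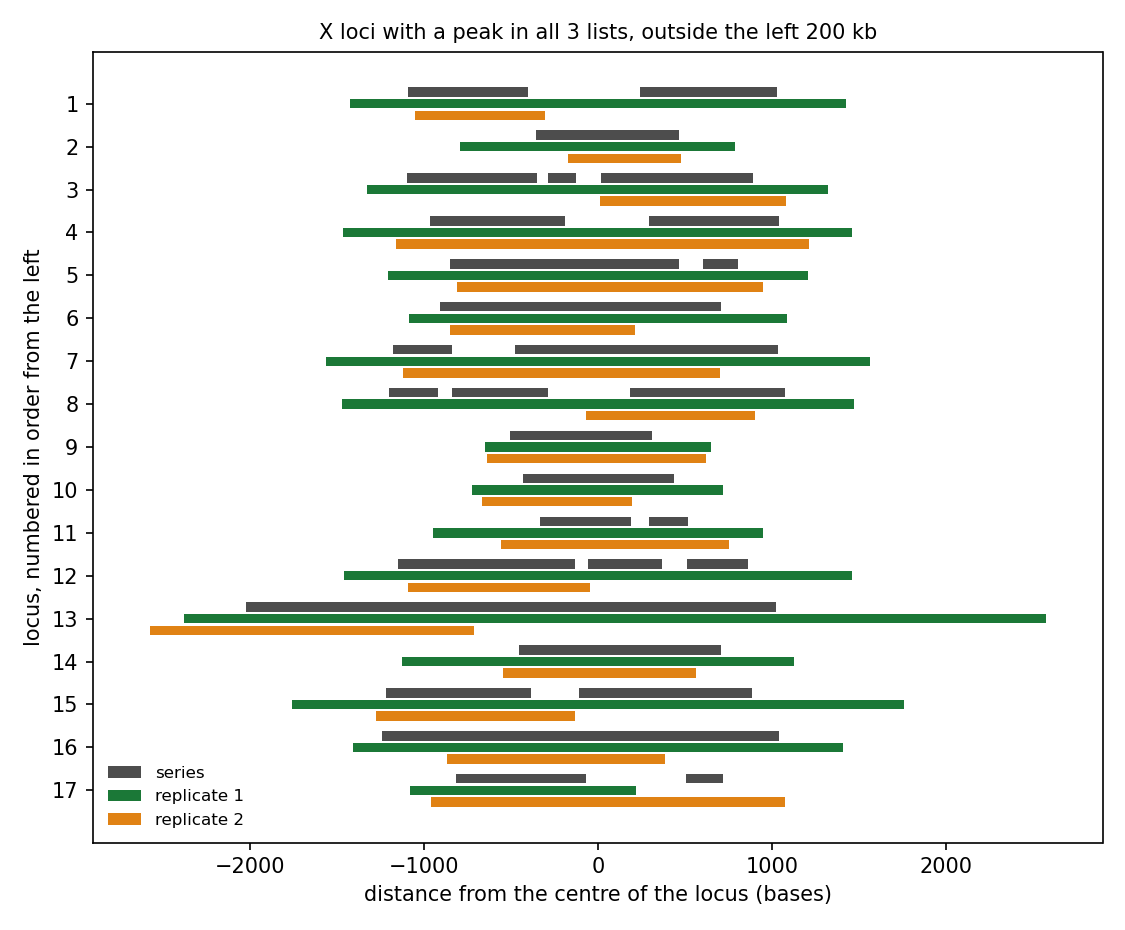
Extent of the peaks at the 17 X loci with a peak in all 3 lists outside the left 200 kb, as distance in bases from the centre of each locus, with 1 row a locus and a bar for each peak of the series (grey), replicate 1 (green) and replicate 2 (orange). The orange bar lies inside the green one at 15 loci and reaches past it at loci 13 and 17.

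The 17 loci were spread along X without gathering in 1 region. The left arm (the first 25% of the span, less the left 200 kb) held 5, the central 50% held 7 and the right arm 5. Gaps between them had a median of 959.8 kb, from 5.87 to 2146 kb, and 7 of the 16 gaps were over 1000 kb. Only 2 gaps were under 50 kb.

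Sites on X that were strong in 1 list were not always shared. Of the 10 highest-scoring series peaks on X, 5 met both replicates and 5 met replicate 1 only. The highest of the latter lay at 15646436 to 15647292, at percentile 88.1 and 202 kb from the nearest replicate 2 peak. Those at 5056171 to 5057236 and 13396832 to 13397628 stood at percentiles 87.1 and 87.03, and lay 372 and 704 kb from a replicate 2 peak. The remaining ones were at 109488 to 114273, in the left 200 kb, and at 381462 to 382773, with percentiles of 86.6 and 86.5. Autosomal peaks of this rank were mostly met by replicate 2, as the score groups above show.

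The widest X series peaks were not all shared either, and autosomal peaks of like width were not set beside them. The peak at 109488 to 114273 was the widest, with 4786 bases, followed by 3644 bases at 15807505 to 15811148 and 3310 bases at 291953 to 295262. All 3 met replicate 1 and not replicate 2. Those that came next met both, with 3045 bases at 14102554 to 14105598 (locus 13) and 2460 bases at 163811 to 166270 in the left 200 kb.

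Of the 10 highest-scoring X peaks of replicate 1, 5 met replicate 2 and all 10 met the series list. The 5 without a replicate 2 peak included 108876 to 114584 at percentile 73.1, which is the place of the widest series peak. The others lay at 5950483 to 5954416 (percentile 61.6), 1850445 to 1856276 (59.3), 14968843 to 14973754 (58.03) and 15806846 to 15811612 (57.2). The nearest replicate 2 peak was 38.1 kb away from the last of these and 830 kb away from the second. Of all 21 X peaks of replicate 1 above its list median, 8 met replicate 2. These peaks fall in the third and highest score groups of that list. There 725 of 801 (90.5%) and 814 of 820 (99.3%) autosomal peaks met replicate 2.

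Replicate 2 had 3 X peaks that met no peak of replicate 1, and they met no series peak either. The strongest, at 5428983 to 5429889, had a score of 185.6 and stood at percentile 38.4, above the median of the X peaks of that list, and was 82.9 kb from the nearest replicate 1 peak. The second, at 6296042 to 6296854, was at percentile 17.4 and 31.4 kb away. The third, at 16514419 to 16515481, was at percentile 3.02 and 4.56 kb away. The 2 replicate 1 peaks that met no other list were weak as well, at 13153927 to 13155170 (percentile 5.30) and 13976106 to 13977132 (7.83).

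Along the chromosome, series and replicate 1 peaks occurred in every 1-Mb window of X, and replicate 2 peaks in 14 of 18. The number of series peaks per window had a median of 21.5 and ran from 10 in the last, incomplete window to 84 in the first. After the first window the fullest were that from 14 to 15 Mb, with 42 series peaks, that from 4 to 5 Mb with 38 and that from 15 to 16 Mb with 35. The same windows held 15, 15 and 16 replicate 1 peaks, where the median was 10.5. Replicate 2 had 8 peaks in the first window and at most 3 in any other, reached from 6 to 7 Mb and from 14 to 15 Mb. The window from 6 to 7 Mb was thus among the fullest in replicate 2 and among the emptier in the series list, with 15 peaks.

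The left 200 kb held 40 series peaks, 12 of replicate 1 and 7 of replicate 2, which is 8.03%, 6.32% and 25.9% of the X peaks of each list. Outside it the left arm had 32.6 series peaks per Mb, the centre 22.5 and the right arm 27.3. Replicate 1 had 11.1, 9.71 and 10.2 peaks per Mb in these parts, and replicate 2 had 1.18, 1.02 and 1.35. Peak density was thus lowest in the centre in each list, by little in the replicates. The replicate 1 densities rest on 47, 86 and 45 peaks, and those of replicate 2 on only 5, 9 and 6. The ratio of centre to arms was 0.666 over all of X and 0.751 without the left 200 kb in the series list, and 0.914 and 0.800 without it in replicates 1 and 2. In the series list the autosomes had ratios between 0.909 (chromosome II) and 1.24 (chromosome I), so X lay below all 5. In replicate 1 they ran from 0.933 to 1.34 and in replicate 2 from 1.67 to 2.14. Width changed little along X, with median series widths of 338, 367 and 362 bases in the left arm without the 200 kb, the centre and the right arm.

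Gaps between neighbouring series peaks on X covered a wide range. The median gap was 2.31 kb, with 25% of gaps at or below 0.279 kb and 25% at or above 44.8 kb. The median was 24.3 kb when series peaks within 500 bases were joined, and 37.6 kb in the better-scoring 50% of the list. Gaps under 1 kb made up 219 of the 497 (44.1%), gaps over 50 kb made up 115 (23.1%), and the other 163 lay in between. On the autosomes 67.8% were under 1 kb and 2.74% over 50 kb, with a median of 0.420 kb. Chromosome V, the autosome with the fewest series peaks per Mb (77.5 against 28.1 on X), had 60.6% under 1 kb, 7.16% over 50 kb and a median of 0.555 kb. The coefficient of variation of the gaps was 1.80 on X and between 2.75 and 3.86 on the autosomes. The shortest gap was 51 bases on X and in the whole series list, so the caller or a later step left no shorter one. In replicate 1 the median X gap was 55.6 kb, against 7.12 kb on the autosomes, and in replicate 2 it was 563 kb against 6.75 kb.

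**Figure D4:**
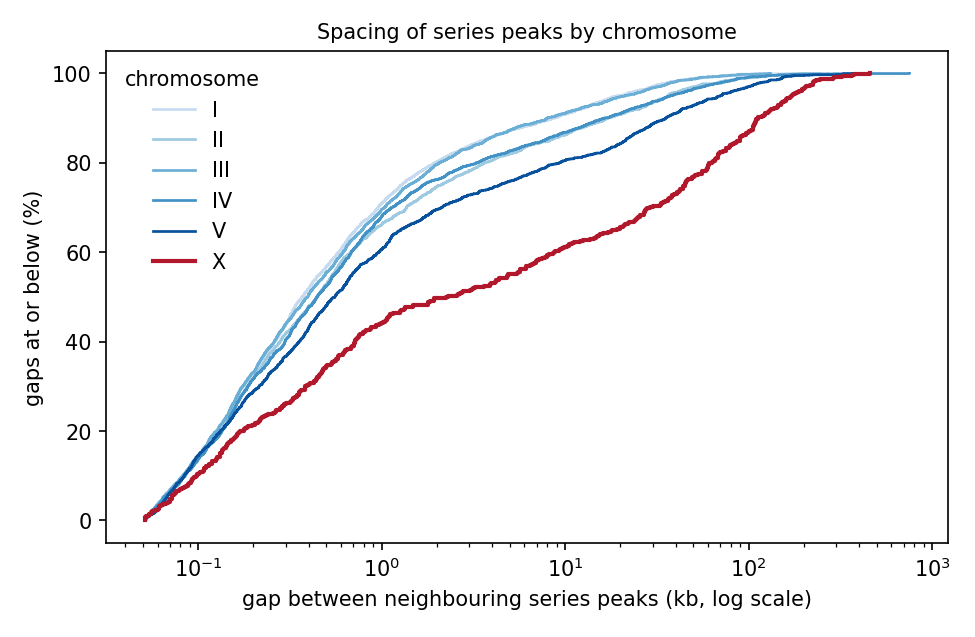
Cumulative share of gaps between neighbouring series peaks, in percent, against gap length in kb on a log axis, with 1 line for each of the 6 chromosomes. The X line (red) bends away from the autosomes before 1 kb, where it has 44.1% of its gaps, and rises again above 50 kb, where 23.1% of its gaps lie.

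Runs of at least 3 series peaks with gaps of at most 10 kb were counted as clusters. X had 63 clusters with 323 peaks, or 64.9% of its series peaks, where 93.9% of all nuclear series peaks were in a cluster. The lowest autosome was chromosome V with 89.3%. This share moves with peak density, which was 5.15 times as high on the autosomes as on X, and the part of density in it was not tested. Most X clusters were small, with a median of 4 peaks and 5.44 kb, and 27 of the 63 had 3 peaks. Of the 63, 58 had a replicate 1 peak within their bounds and 9 had a replicate 2 peak. Outside the left 200 kb 7 of 60 had one. Autosomal clusters were not counted in this way, so these counts are not shown to be particular to X. Some clusters lay over a single replicate 1 peak, such as 3 peaks within 0.82 kb at 14349987 to 14350806. A cluster is thus not always a group of separate sites. With series peaks within 500 bases joined, 40.2% of the X peaks were in clusters, and the autosomal share was not computed for that setting.

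The fullest cluster, 24 series peaks over 60.7 kb at 154697 to 215356, began in the left 200 kb, and so did the third, 13 peaks over 41.7 kb at 27924 to 69640. The second, at 14969741 to 14985476, packed 16 peaks into 15.7 kb, 39.6% of which they covered, with 3 replicate 1 peaks and 0 replicate 2 peaks. The fourth, at 3090754 to 3114440, had 11 peaks over 23.7 kb, 4 replicate 1 peaks and 2 of replicate 2, and holds loci 3 and 4. The fifth, at 1435160 to 1453092, had 10 peaks over 17.9 kb, 4 replicate 1 peaks and 0 of replicate 2.

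X peaks with a close neighbour in the series list were met most often, but the share did not fall steadily with distance. The groups below include the left 200 kb, which held 17 of the 39 peaks over both replicates. The same groups were not formed on the autosomes, so the pattern is not shown to be particular to X. Of the 344 X peaks with a neighbour under 1 kb away, 83.7% met replicate 1 and 33 (9.59%, 6.91 to 13.2%) met both replicates. Of the 67 with the nearest neighbour at 1 to 10 kb, 40.3% met replicate 1 and 2 met both. Of the 87 with none within 10 kb, 55.2% met replicate 1 and 4 (4.60%, 1.80 to 11.2%) met both. Of the 29 with none within 50 kb, 15 met replicate 1 and 0 met both, which allows a share of up to 11.7% by the Wilson interval. A replicate 1 peak often spanned several series peaks, so that close neighbours could meet the same one. Of the 190 X peaks of replicate 1, 87 (45.8%) held a single series peak and 48 (25.3%) held 3 or more, against 30.4% and 43.5% on the autosomes.

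The longest stretches without a call differed between the lists. In the series list they were 458 kb (6377199 to 6835460), 374 kb (12020253 to 12394319), 366 kb (12482210 to 12847794), 321 kb (10577464 to 10898649) and 291 kb (5345771 to 5636455). No replicate 1 peak lay wholly inside any of the 5, though replicate 1 peaks at the bounding sites reached into all but the first. The last of them held the strongest of the replicate 2 peaks found in no other list, and the first was not reached by a peak of any list.

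In replicate 1 the longest were 575 kb (6264605 to 6839455), 444 kb (16063763 to 16507920), 433.5 kb (12020848 to 12454345), 387 kb (3803346 to 4190732) and 365 kb (12482616 to 12847246). Of these, 3 overlapped long stretches of the series list. In replicate 2 they were 2146 kb (7770043 to 9916209), 2083 kb (12019345 to 14101998), 1918 kb (768031 to 2686473), 1687 kb (9917071 to 11603957) and 1195 kb (16515482 to 17710484). Wholly inside them lay 46, 40, 56, 36 and 15 series peaks and 22, 14, 20, 11 and 4 replicate 1 peaks. The stretch from 6377199 to 6835460, which no list marked, was thus short beside those that only replicate 2 left free.

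At the left end, the first series peak ran from base 1 to 320 at percentile 69.2, and the first replicate 1 peak from base 1 to 723 at percentile 9.66, whereas replicate 2 had its first X peak at 42874. The series list also began at base 1 on chromosomes I, II and V, and replicate 1 did so on chromosome I. The last X peaks ended at 17712158 in the series list, 17711661 in replicate 1 and 17712518 in replicate 2, all within locus 17. Since the span of X was set by the last peak end, their distance from the right end of the chromosome is not known. Peaks are given by position only, as no gene annotation in the build of the files was used.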

How the data were processed

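Peak lists of 2 ChIP samples and of the whole series were used. The submitters' processing notes name BWA and ce10, and the lists name MACS (replicates) or MACS v2 (series) and WormBase WS220, per the file headers and source column. For cutoff, control and pooling, no source used here gives a value. The deposited score of each peak is the authors' value on an unnamed scale. Starts and ends are 1-based positions of the deposited files.

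Python 3.11.15, numpy 2.4.6 and pandas 2.3.3 were used. Percentiles count all peaks of a list. Nuclear totals leave out the mitochondrial peaks of the series list. The span of X, 17712518 bases, is the highest peak end in any list. Gaps are bases between neighbouring peaks. Named sites were all loci in 3 lists, the 10 highest-scoring X peaks of the series and of replicate 1, the 5 widest series peaks, the 5 fullest clusters, the 5 longest gaps a list and replicate 2 peaks that met no replicate 1 peak; the series peak over replicate 2 alone and the replicate 1 peaks outside the other lists were named after their values were seen. Alternatives changed the overlap rule, scores kept, cluster gap, joining of peaks, the centre, the left 200 kb and the replicates. Members and lists were chosen with earlier results of these data known. Counting was tested on simulated lists.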

Additional observations from a re-analysis of the deposited data

How the results depend on the processing

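Over 13 results and 62 alternatives, 29 values stayed within the spread allowed, 31 moved and 2 turned direction. The spread allowed was 1 SD between the replicates, a 95% interval or, for counts, a fixed fold range around the main value. For the median gap that spread is very wide: the 2.31 kb of the series list became 37.6 kb in the better-scoring 50%, 24.3 kb with series peaks within 500 bases joined and 2.74 kb without the left 200 kb, so its size depends on which peaks are kept. The settings for peaks of 500 to 2000 bases and for 10 score groups were chosen after seeing the data. The better-scoring 50% of each list left 194 X series peaks, 3.12% of the nuclear ones, with 2.06% over both replicates, 2 loci in all lists, 29.9% in clusters and a width ratio of 0.679. Joining series peaks within 500 bases gave 326 peaks, 5.58% of the nuclear ones, and 40.2% in clusters. Cluster gaps of 5 and 20 kb gave 57.03% and 70.9%. Requiring 50% of both peaks gave 1.41% over both and 9 loci. The differences between X and autosomes in the score groups were then 0, -0.273, 0.466 (turned) and -22.7 points. In the lower 3 groups the autosomal share was then at most 1.84%, so X could lie little below it. Without the left 200 kb, 4.80% met both, and score groups 2 and 3 differed by -12.2 and -21.9 points. With widths of 500 to 2000 bases score group 1 differed by 12.6 points (turned) and score group 2 by -20.6. Leaving out a replicate gave ranges of 27 to 190 X peaks, 0.848 to 5.79% of the nuclear peaks, 8.03 to 72.9% over the remaining lists, 24 to 187 loci, median gaps of 55.6 to 563 kb, width ratios of 0.507 to 0.600, median percentiles of 21.4 to 30.8 and centre-to-arm ratios of 0.50 to 0.827. The centre stayed below the arms in all 6 alternatives, though only the setting without the left 200 kb took that dense stretch out of the arms. X peaks stayed narrower in all 4. The cause of these changes was not tested. No paired analysis was possible because the lists used here hold values of 1 group only, the ChIP samples. Depth is not known from the lists, so a missing call is not evidence of missing binding.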
